A study of Mus musculus with 6 samples.

Results

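The genes described here are 10 members of the Toll-like receptor system in the mouse optic nerve, chosen by gene symbol: the receptor genes Tlr1, Tlr2, Tlr3, Tlr4, Tlr7, Tlr9 and Tlr13, the co-receptor genes Cd14 and Ly96, and the adaptor gene Myd88. All 10 were among the 25755 genes of the deposited table. Bulk RNA sequencing was done on whole optic nerves of 3 sham-operated mice (mice 1 to 3) and 3 mice with optic nerve crush (ON-CR, mice 4 to 6), all labelled NF1flox/flox;hGFAP-Cre and 3 months of age. In this strain the Cre transgene, driven by the human GFAP promoter, removes Nf1 from neuroglial precursors and their progeny. Sham and ON-CR mice both carry this deletion, and the comparison held no mouse without it. The comparison asks which transcripts of this receptor system differ in nerves after a crush injury.

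Toll-like receptors are membrane proteins of the innate immune system that recognize microbial molecules and products of damaged tissue. Tlr1, Tlr2 and Tlr4 act at the cell surface, whereas Tlr3, Tlr7, Tlr9 and Tlr13 sense nucleic acids inside endosomes. Cd14 and Ly96 (MD-2) deliver lipopolysaccharide to Tlr4, and Myd88 couples every member of the family except Tlr3 to NF-kB. In the central nervous system the receptors are best known from microglia, with Tlr3 also found in astrocytes.

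The libraries held 17414035 to 23620997 estimated reads on genes, each ON-CR library being shallower than each sham library. Values are normalized read counts, in which 1 read was worth 0.885 to 1.06. The expected glia were present, since the sum of 6 oligodendrocyte markers was 1260890 to 1810910 in sham and 611316 to 721020 in ON-CR nerves, and that of 6 astrocyte markers was 161630 to 197732 and 232984 to 273549. Gfap was the largest part of the astrocyte sum (means of 114862 and 179241). Of the 6 astrocyte markers 4 were higher in ON-CR nerves on average, whereas S100b was lower (16604 and 9855, limma adjusted p = 0.0185). Nf1 was read at 343 to 447 in sham and 380 to 438 in ON-CR libraries, which checks no label because both groups carry the deletion. Xist and Ddx3y separated the groups. Xist was 2.14 to 30.9 in sham and 2708 to 6357 in ON-CR libraries, and Ddx3y was 1291 to 1645 in sham libraries against 976, 4.19 and 0 in mice 4, 5 and 6. Mouse 4 had both transcripts at a high level (Xist 2708, Ddx3y 976), and its Eif2s3y (363) lay inside the sham range (358 to 525). The labels give 1 mouse per library and no sex, and surgery cannot be told apart from what sets these transcripts. The paper's methods on RNA extraction and PCR put more than 1 mouse in a sample. Whether that held for these libraries is not stated, and libraries are named here by their mouse label.

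Cd14 rose after ON-CR, and it was the 1 member of 10 that passed the test. The test was limma on log2(value + 1) with Benjamini-Hochberg adjustment over all 25755 genes and a threshold of 0.05, which called 540 genes, or 2.10% of the table (250 higher, 0.971%, and 290 lower, 1.13%). With library size scaling the split was 421 higher and 195 lower. On leaving out a sham mouse it was 105 and 87 (mouse 1), 78 and 45 (mouse 2) or 113 and 145 (mouse 3). On leaving out an ON-CR mouse it was 137 and 325 (mouse 4), 489 and 365 (mouse 5) or 39 and 28 (mouse 6). Of the other members, Tlr1, Tlr2, Tlr7, Tlr9 and Tlr13 had every ON-CR value above every sham value without passing the adjusted test, and Tlr3, Tlr4, Ly96 and Myd88 overlapped between the groups. Those 5 genes and Cd14 were also the 6 members with an unadjusted limma p at or under 0.05, beside 7.37% of all genes for higher values. The count of 6 members with groups that did not overlap, all higher in ON-CR, stands beside 10.5% of all genes with that order. The median log2 fold change of the 10 genes was 0.87, against 0.03 over all genes tested. With 3 mice against 3, an exact two-sided permutation test of 1 gene cannot give a p below 0.1, the value it gave for each of these 6 genes. In bulk RNA, a different number of expressing cells and a different amount of RNA per cell cannot be told apart.

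**Figure D1:**
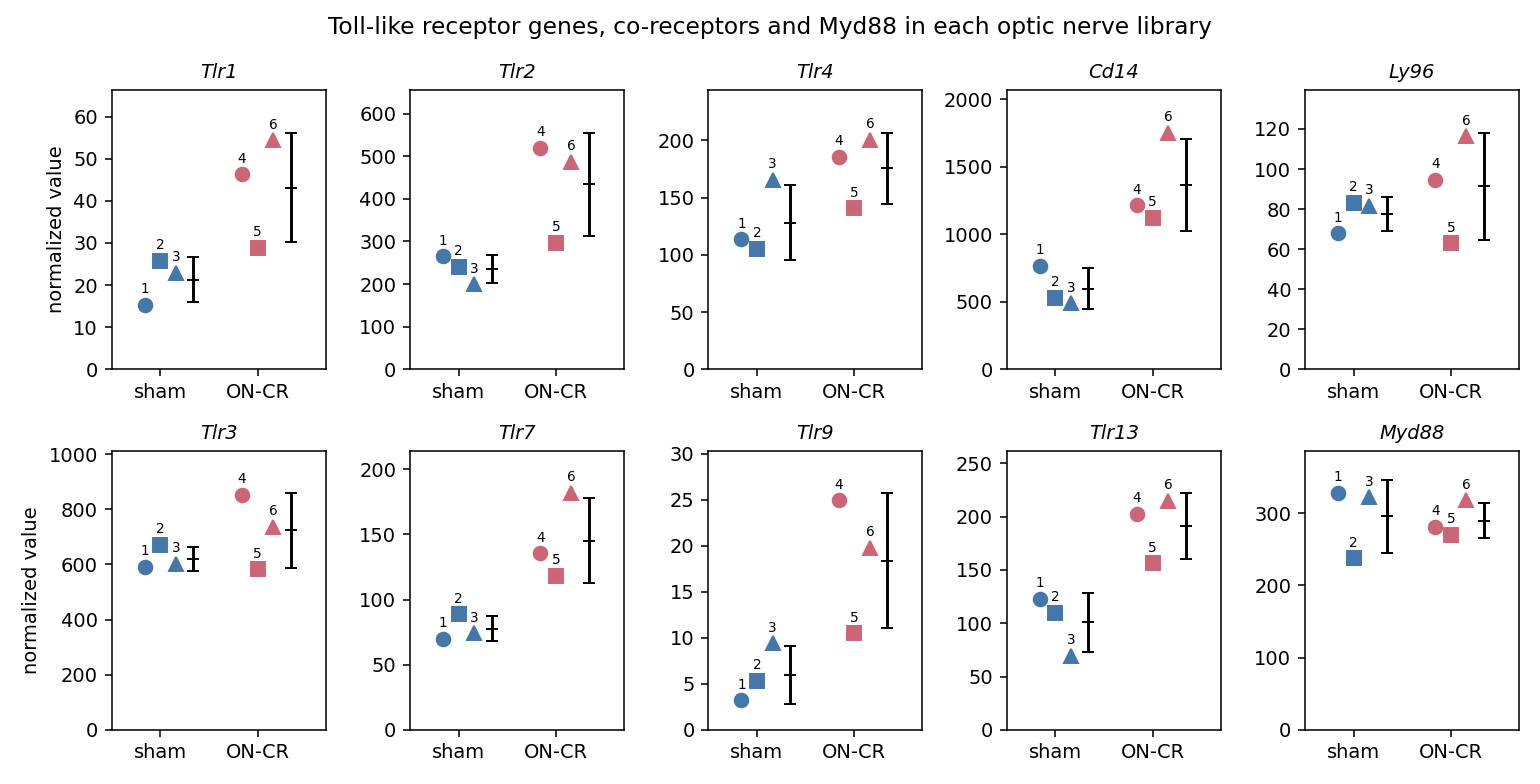
Normalized values (linear axes from 0) of the 10 genes in each library, numbered by mouse, with circles, squares and triangles for the mice of each group in order and a black bar for the mean ± SD of 3 mice beside each group. In Tlr1, Tlr2, Tlr7, Tlr9, Tlr13 and Cd14 all 3 ON-CR values lie above all 3 sham values, and mouse 5 has the lowest ON-CR value in every panel (28.8 for Tlr1, 297 for Tlr2, 10.5 for Tlr9).

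Among the surface receptors, Tlr2 recognizes bacterial lipoproteins together with Tlr1 or Tlr6. Tlr2 (ENSMUSG00000027995, chr3:83836272-83841767, minus strand, GRCm38) had sham values of 265, 240 and 199 (mice 1 to 3 in order) and ON-CR values of 520, 297 and 487 (mice 4 to 6). The highest sham value lay just below mouse 5, and the other ON-CR mice were well above. The means were 235 ± 33.4 and 435 ± 121 (SD, n = 3 each), and the log2 fold change was 0.85 (SE 0.22) with a limma adjusted p of 0.0868. Tlr2 passed the threshold when mouse 5 was left out (limma adjusted p = 0.00790, log2 fold change 1.11), with library size scaling (0.0437) and with library quality weights (0.0334). It did not pass with TMM (0.0845) or upper-quartile scaling (0.0759), nor on leaving out any other mouse (0.165 to 0.332).

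Tlr1, the partner of Tlr2 for triacylated lipoproteins (ENSMUSG00000044827, chr5:64924679-64933563, minus strand), was 15.3, 25.7 and 22.9 in sham and 46.2, 28.8 and 54.3 in ON-CR mice. Mouse 5 was again the ON-CR mouse nearest to sham, and the groups did not overlap. Mean values were 21.3 ± 5.37 and 43.1 ± 13.03 (SD, n = 3 each), with a log2 fold change of 0.97 (SE 0.38) and a limma adjusted p of 0.252. Of the 50-base stretches of its transcripts, 15.4% occur in other genes, among them its neighbour and paralog Tlr6, and how reads in these stretches were assigned is not given in the sources used here. Tlr6 itself was 22.9, 10.6 and 27.8 in sham and 62.4, 28.8 and 42.2 in ON-CR mice, with a log2 fold change of 1.12 (SE 0.45, limma adjusted p = 0.267).

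Tlr4, the lipopolysaccharide receptor (ENSMUSG00000039005, chr4:66827584-66930284, plus strand), was 114, 105 and 165 in sham and 185, 140 and 200 in ON-CR mice. Sham mouse 3 exceeded ON-CR mouse 5, so the groups overlapped. The log2 fold change was 0.46 (SE 0.23), with means of 128 ± 32.5 and 175 ± 31.2 (SD, n = 3 each) and a limma adjusted p of 0.372.

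Cd14, a surface protein that hands lipopolysaccharide to Tlr4 and also assists Tlr2 (ENSMUSG00000051439, chromosome 18, positions 36725067 to 36726798, minus strand), was 768, 529 and 489 in sham and 1214, 1120 and 1752 in ON-CR mice. Every ON-CR mouse exceeded the highest sham mouse by a margin, and mouse 6 was highest. Its mean went from 596 ± 151 to 1362 ± 341 (SD, n = 3 each), 2.29 times the sham mean, and the log2 fold change was 1.19 (SE 0.21) with a limma adjusted p of 0.0195. The call was lost when sham mouse 2, sham mouse 3 or ON-CR mouse 6 was left out, with adjusted p-values of 0.122, 0.0878 and 0.129 and log2 fold changes of 1.12, 1.07 and 1.00.

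Ly96, the soluble subunit that Tlr4 needs to bind lipopolysaccharide (ENSMUSG00000025779, chr1:16688051-16709611, plus strand), was 67.9, 83.2 and 81.7 in sham and 94.7, 62.9 and 116 in ON-CR mice. The lowest value of all was in ON-CR mouse 5 and the highest in ON-CR mouse 6. The log2 fold change was 0.19 (SE 0.27) with a limma adjusted p of 0.791, and it was -0.0017 without mouse 6. The 3 parts of the lipopolysaccharide receptor therefore had log2 fold changes of 1.19 (Cd14), 0.46 (Tlr4) and 0.19 (Ly96), and the differences between these genes were not tested.

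Among the endosomal receptors, Tlr7 recognizes RNA rich in uridine and guanosine. Tlr7 (ENSMUSG00000044583, chrX:167304929-167330558, minus strand) was 70.0, 88.5 and 74.2 in sham and 136, 118 and 182 in ON-CR mice. All ON-CR values lay above all sham values, mouse 6 being highest. The means were 77.6 ± 9.71 and 145 ± 32.7 (SD, n = 3 each), and the log2 fold change was 0.88 (SE 0.23) with a limma adjusted p of 0.0906.

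Tlr13, which recognizes a stretch of bacterial ribosomal RNA and has no human counterpart (ENSMUSG00000033777, chrX:106143204-106160493, plus strand), was 123, 110 and 69.5 in sham and 202, 156 and 215 in ON-CR mice. The groups were separate, and sham mouse 3 had the lowest value. The means were 100.8 ± 27.9 and 191 ± 30.9 (SD, n = 3 each), which gave a log2 fold change of 0.94 (SE 0.25), and the limma adjusted p was 0.0922. It passed the threshold with library size scaling (adjusted p = 0.0472).

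Tlr7 and Tlr13 lie on the X chromosome, as does Xist. The 476 X-linked genes with a mean value of at least 50, counted without Xist and Tsix, had a median log2 fold change of 0.013, against -0.02 for 13713 autosomal genes. The part of the difference in sex-linked transcripts in the values of both receptors was not tested.

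Tlr9, the receptor for unmethylated CpG DNA (ENSMUSG00000045322, chr9:106222598-106226883, plus strand), was 3.18, 5.31 and 9.39 in sham and 24.9, 10.5 and 19.7 in ON-CR mice. These values correspond to 3, 6 and 10 estimated reads in sham and 25, 10 and 19 in ON-CR libraries, the sham mouse 1 value standing at the floor of 3 reads. Its log2 fold change, 1.50 (SE 0.56), was the highest and the least precise of the 10 genes, with a limma adjusted p of 0.223. The means were 5.96 ± 3.15 and 18.4 ± 7.32 (SD, n = 3 each), and at this depth sham mouse 3 and ON-CR mouse 5 had the same 10 reads.

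Tlr3, the receptor for double-stranded RNA (ENSMUSG00000031639, chr8:45395665-45411080, minus strand), was 591, 670 and 602 in sham and 852, 582 and 736 in ON-CR mice. ON-CR mouse 5 lay below all sham mice and the other ON-CR mice above them. The means were 621 ± 43.0 and 723 ± 135 (SD, n = 3 each), and the log2 fold change was 0.20 (SE 0.16) with a limma adjusted p of 0.579.

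Myd88, the shared adaptor (ENSMUSG00000032508, chr9:119335934-119341411, minus strand), was 328, 237 and 322 in sham and 281, 270 and 318 in ON-CR mice. The ON-CR values lay inside the sham range. The means were 296 ± 50.7 and 290 ± 24.8 (SD, n = 3 each), with a log2 fold change of -0.02 (SE 0.17) and a limma adjusted p of 0.976. Its sign was not stable, at 0.11 with library size scaling, which moved the median of all genes by 0.12, and 0.0403 with library quality weights. The SMARTer Ultra Low kit does not mark strand, and 11.3% of the exon bases of Myd88 (290 bases) are shared with Acaa1a on the opposite strand. Acaa1a had means of 2000 and 1289 in sham and ON-CR nerves (log2 fold change -0.67, limma adjusted p = 0.114), and how many of the Myd88 reads came from the shared bases was not tested.

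**Figure D2:**
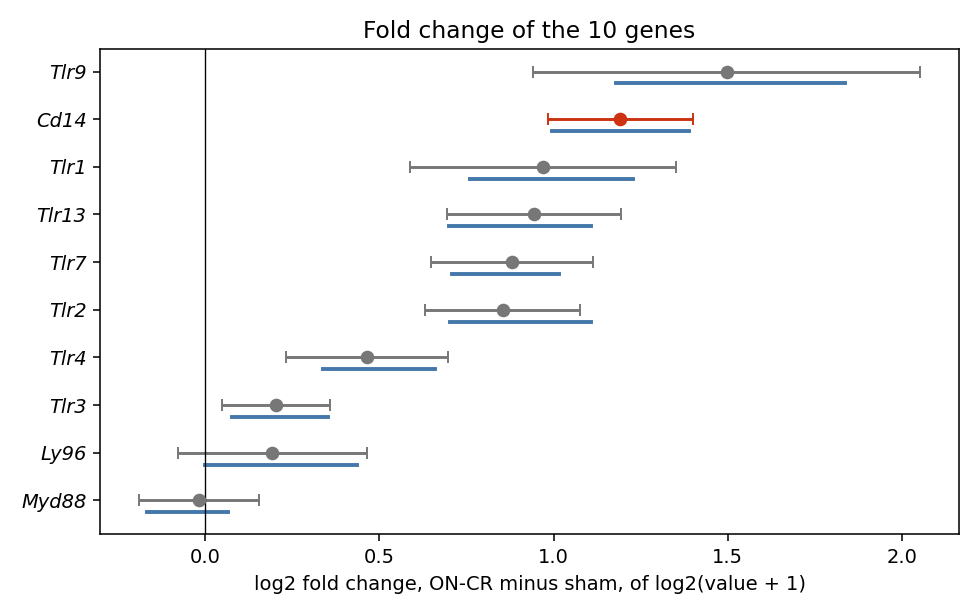
Log2 fold change (ON-CR minus sham, of log2(value + 1)) of each of the 10 genes with its standard error from limma, in red where the adjusted p was at or under 0.05; the blue line under each point spans the values obtained on leaving out each mouse in turn. Cd14 (1.19) is the gene called, Tlr9 (1.50) has the widest error, and Ly96 and Myd88 reach both sides of 0 when mice are left out.

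Promoter sequence from RefSeq (GRCm38.p6, 250 bases before to 50 bases after the annotated start) was given for 6 of the 10 genes, namely Tlr1, Tlr2, Tlr3, Tlr9, Tlr13 and Myd88. The promoters are printed for 4 of the receptor genes whose groups did not overlap, and for Myd88 as the member with the fold change nearest to 0. Capitals mark matches, on either strand, to the letters GAGGAAGT (PU.1, a factor of myeloid cells), GGGANTTCC (NF-kB), GAAANNGAA (ISRE, bound by interferon regulatory factors) and TGANTCA (AP-1).
Tlr2 (chr3:83841559-83841858, minus strand): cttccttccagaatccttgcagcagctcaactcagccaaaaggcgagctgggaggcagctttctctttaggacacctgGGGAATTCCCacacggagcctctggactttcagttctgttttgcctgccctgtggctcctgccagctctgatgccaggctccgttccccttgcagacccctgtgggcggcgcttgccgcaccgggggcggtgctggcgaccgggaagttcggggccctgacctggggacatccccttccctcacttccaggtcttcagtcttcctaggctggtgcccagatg
Tlr1 (chr5:64933509-64933808, minus strand): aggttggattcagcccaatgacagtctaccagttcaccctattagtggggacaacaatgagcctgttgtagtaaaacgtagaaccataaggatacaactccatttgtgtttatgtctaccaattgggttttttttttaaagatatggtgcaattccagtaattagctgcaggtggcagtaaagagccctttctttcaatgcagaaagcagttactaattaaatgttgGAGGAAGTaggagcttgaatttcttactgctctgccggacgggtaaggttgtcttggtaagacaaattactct
Tlr9 (chr9:106222348-106222647, plus strand): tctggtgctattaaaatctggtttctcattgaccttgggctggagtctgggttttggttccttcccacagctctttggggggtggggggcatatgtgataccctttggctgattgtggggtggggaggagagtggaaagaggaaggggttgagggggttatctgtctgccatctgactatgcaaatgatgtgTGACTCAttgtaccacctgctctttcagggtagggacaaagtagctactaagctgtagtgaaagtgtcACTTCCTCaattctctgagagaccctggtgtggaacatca
Tlr13 (chrX:106143025-106143324, plus strand): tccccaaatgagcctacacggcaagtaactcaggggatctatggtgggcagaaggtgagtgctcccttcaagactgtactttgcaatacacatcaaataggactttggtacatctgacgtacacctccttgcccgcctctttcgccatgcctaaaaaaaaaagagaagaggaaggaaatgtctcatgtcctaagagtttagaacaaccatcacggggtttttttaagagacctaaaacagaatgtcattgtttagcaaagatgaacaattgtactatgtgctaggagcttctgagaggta
Myd88 (chr9:119339969-119340268, minus strand): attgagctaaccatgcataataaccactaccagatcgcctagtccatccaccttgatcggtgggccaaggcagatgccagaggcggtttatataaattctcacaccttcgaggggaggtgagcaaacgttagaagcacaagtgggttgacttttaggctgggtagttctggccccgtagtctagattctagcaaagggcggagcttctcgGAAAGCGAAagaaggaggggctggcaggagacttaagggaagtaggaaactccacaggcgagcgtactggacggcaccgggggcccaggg
The Tlr2 promoter held NF-kB letters on both strands, at -172 and -171 from the start (counted at the first base of the match), in a palindrome whose matches overlap. Such letters occurred in 1.68% of 32851 promoters, and not in those of Tlr1, Tlr3, Tlr9, Tlr13 or Myd88. The motif letters were chosen after sequences had been seen, so the shares of promoters carry no test. PU.1 letters, present in 3.2% of promoters, occurred in the Tlr1 promoter printed (position -23) and in Tlr9 (position 10). Tlr9 also held an AP-1 match at -58 (7.81% of promoters), and Myd88 an ISRE match at -40 (8.56%). No match lay in the Tlr13 window, nor in the promoter of the other annotated start of Tlr1 (chr5:64932650-64932949). A match of letters describes the sequence and does not show binding, and the 4 receptor promoters printed have no match in common except the PU.1 letters of Tlr1 and Tlr9.

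Levels of different genes were compared as normalized value per kb of exon. In sham nerves Cd14 stood far above the rest at 344 (282.5 to 443.6), followed by Tlr3 at 119 and Myd88 at 115, which did not differ beyond their spread. Tlr2 (77.9) and Ly96 (76.0) came next with overlapping ranges, then Tlr13 (23.4), Tlr4 (23.0) and Tlr7 (19.0), also overlapping. Tlr1 (6.36) and Tlr9 (1.71) were lowest, each apart from the gene above it.

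In ON-CR nerves Cd14 stood at 786 per kb. Tlr2 (144) was second, in a range of 98.4 to 173 that overlapped with those of Tlr3 (139), Myd88 (112) and Ly96 (89.4). Tlr13 (44.4), Tlr7 (35.6) and Tlr4 (31.6) stood above Tlr1 (12.9) and Tlr9 (5.28). The range of Tlr7 overlapped with those of Tlr13 and Tlr4, which were apart from each other. Between the groups the order of the members differed in the places of Tlr2 and of Tlr7. The range of Tlr2 overlapped with those of Tlr3 and Myd88 in ON-CR nerves and lay below both in sham nerves.

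**Figure D3:**
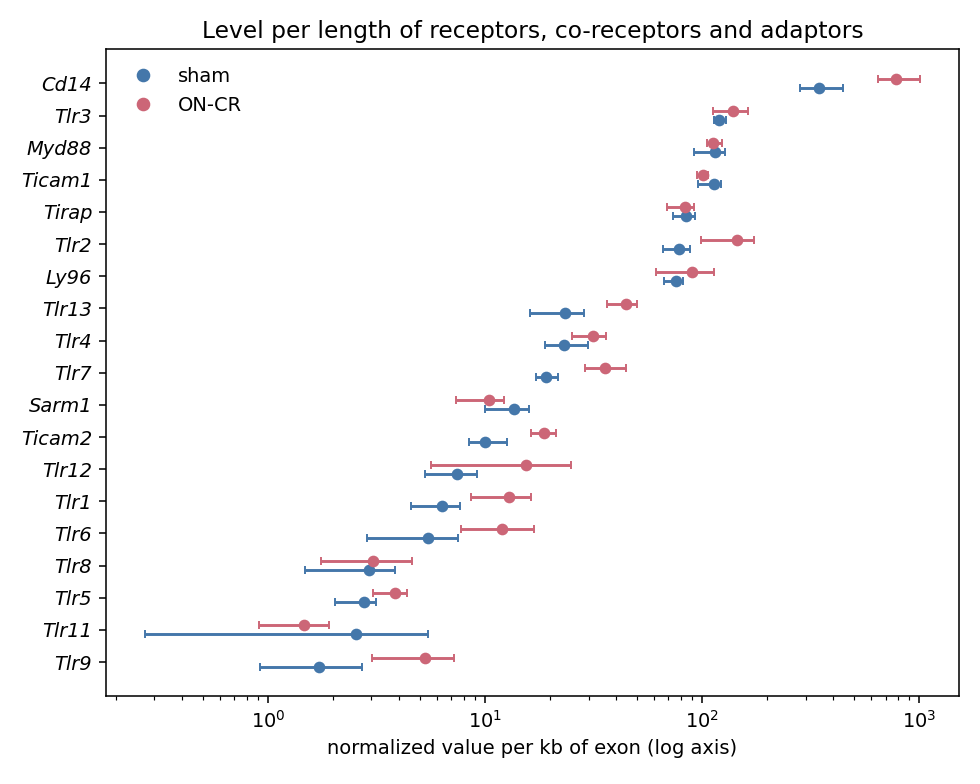
Mean normalized value per kb of exon (log axis) of Toll-like receptors, co-receptors and adaptors, with bars from the lowest to the highest of 3 libraries, in sham (blue) and ON-CR (red) nerves. Cd14 is highest in both groups (344 and 786), and Tlr9 is the lowest of the 10 genes in both (1.71 and 5.28).

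The ON-CR mice were unequal in these genes. Set against the sham mean, the median deviation of the 10 genes was 0.92 in mouse 4, 0.40 in mouse 5 and 1.09 in mouse 6 on the log2 scale, and the number of members above the sham mean was 9, 7 and 10. The mean of 10 microglia markers deviated by 0.35, -0.057 and 0.34 in the same mice. In sham mice 1, 2 and 3 it deviated by 0.35, -0.060 and -0.29, where the median of the 10 genes deviated by -0.10, 0.073 and 0.018. Sham mouse 1 thus had as high a microglia marker mean as ON-CR mice 4 and 6. Without mouse 5, the groups did not overlap in 9 of the 10 members (all but Myd88, 17.6% of all genes), and without sham mouse 3 in 7, Tlr4 being the addition (17.2%). Leaving out any of the other 4 mice gave the same 6 members, with 14.1% to 15.6% of all genes.

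None of the 10 microglia markers was called, their median log2 fold change was 0.30, and their summed level was 15831 to 22303 in sham and 18709 to 26905 in ON-CR nerves. Subtracting the mean log2 value of these markers within each library left Cd14 at 0.98, Tlr1 at 0.76, Tlr13 at 0.73, Tlr7 at 0.67 and Tlr2 at 0.64 higher in ON-CR mice, each with groups that did not overlap. Tlr9, at 1.28, overlapped on this scale, as did Tlr4 (0.25), Tlr3 (-0.0076), Ly96 (-0.019) and Myd88 (-0.23). These differences carry no test.

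**Figure D4:**
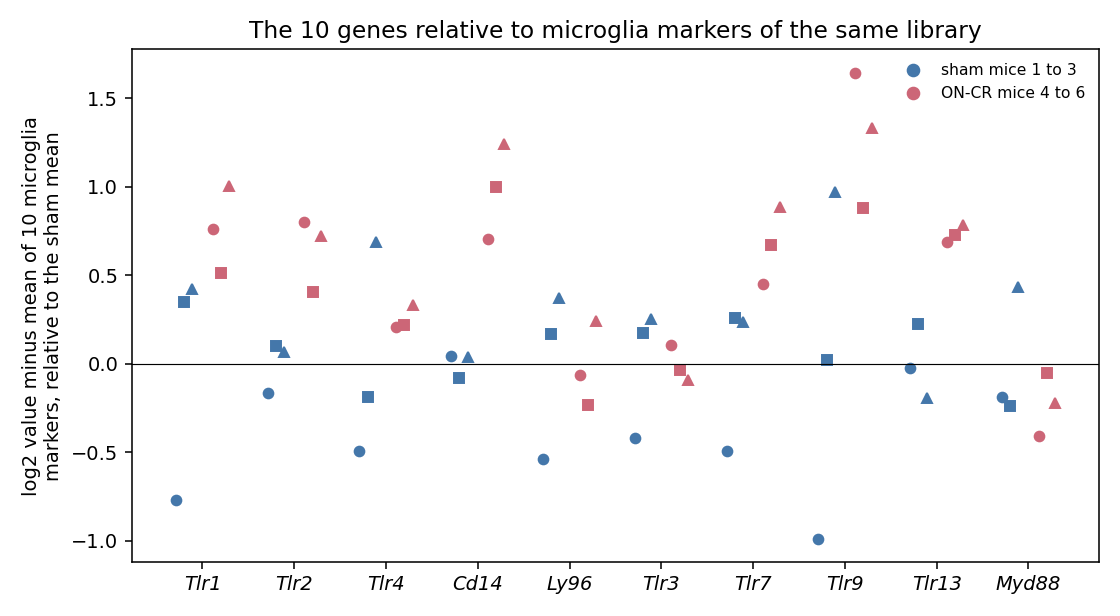
Log2 value of each gene minus the mean log2 value of 10 microglia markers in the same library, set to 0 at the sham mean, for sham mice 1 to 3 (blue) and ON-CR mice 4 to 6 (red), with circles, squares and triangles for the mice in order. The ON-CR points of Tlr1, Tlr2, Tlr7, Tlr13 and Cd14 stay above all sham points, and those of Tlr3, Tlr4, Tlr9, Ly96 and Myd88 overlap with them.

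No marker of other leukocytes was called, and the summed level of each list overlapped between the groups. The summed level in sham and ON-CR nerves was 1914 to 2278 and 1509 to 2878 for 9 macrophage and monocyte markers, 47.9 to 232 and 107 to 178 for 5 of 7 neutrophil markers in the table, and 222 to 491 and 224 to 651 for 6 dendritic cell markers. It was 68.2 to 174 and 86.7 to 626 for 5 of 6 B cell markers and 119 to 380 and 145 to 1093 for 6 T cell markers, mouse 6 being highest in both. Ly6g, Elane and Fcer2a were not in the table, and Mmp8, Ms4a1 and Pax5 were at 0 in some library. Single markers did not all overlap: of the macrophage and monocyte list, Ms4a7 was 100.8, 46.9 and 90.2 in sham and 198, 126 and 164 in ON-CR mice (log2 fold change 1.08, limma adjusted p = 0.117), and F13a1 was 597, 689 and 746 in sham against 583, 369 and 595 after ON-CR (-0.42, limma adjusted p = 0.329). The part of these cells in the receptor values was not tested.

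None of the 5 remaining Toll-like receptors was called. Per kb of exon, Tlr12 stood just above Tlr1 (7.45 and 6.36 in sham, 15.5 and 12.9 in ON-CR nerves). All 5 had a mean above that of Tlr9 in sham nerves, with overlapping ranges for Tlr5, Tlr8 and Tlr11. In ON-CR nerves Tlr5 (3.85), Tlr8 (3.06) and Tlr11 (1.47) lay below Tlr9 (5.28), the ranges of Tlr5 and Tlr8 overlapping with that of Tlr9. Besides Tlr6, the log2 fold change was 0.83 for Tlr12, 0.46 for Tlr5 (the flagellin receptor), 0.06 for Tlr8 and -0.18 for Tlr11, with limma adjusted p-values of 0.487 to 0.973. Tlr12 ranged from 16.8 to 29.1 in sham and from 17.8 to 78.9 in ON-CR mice, and Tlr11 reached 17.8 in sham mouse 3 alone. Over all 12 receptors, 6 had groups that did not overlap and 11 had positive fold changes, beside 10.5% of all genes without overlap and higher in ON-CR and 13608 of 25755 genes with a positive fold change.

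Of the other adaptors with a TIR domain, none of 4 was called. Ticam2 (TRAM), which links Tlr4 to Ticam1, was 73.3, 51.9 and 48.8 in sham and 94.3, 106 and 124 in ON-CR mice, without overlap (log2 fold change 0.90, SE 0.25, limma adjusted p = 0.110). It shares 14.5% of its exon bases with Tmed7 on the same strand, and reads there are uncertain. Ticam1, the adaptor of Tlr3, had a log2 fold change of -0.16, Tirap, the bridge from Tlr2 and Tlr4 to Myd88, of -0.03, and Sarm1, an adaptor known for driving axon degeneration, of -0.39, all with overlapping groups.

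Chaperones and accessory proteins of the receptors held 4 called genes of 16, beside 2.1% of all genes. In 5 of the 16 every ON-CR value lay below every sham value, and in 4 above, beside 2841 and 2717 of 25755 genes. The lower genes included Cnpy3 (log2 fold change -0.35), Cnpy4 (-0.20) and Lbp (-0.29), with limma adjusted p-values of 0.185 to 0.436. Cd180, a surface relative of Tlr4, rose from 39.3 ± 1.41 to 191 ± 91.1 (SD, n = 3 each, log2 fold change 2.11, limma adjusted p = 0.0204), and its partner Ly86 (MD-1) from 1196 ± 153 to 3153 ± 1115 (1.34, limma adjusted p = 0.0217). Slc15a3, an endolysosomal transporter, rose from 38.1 ± 4.22 to 189 ± 74.6 (2.20, limma adjusted p = 0.00846). Rnaset2a, an RNase that prepares RNA for endosomal receptors, fell from 666 ± 162 to 279 ± 81.3 (-1.26, limma adjusted p = 0.0260), and its value is uncertain because of its near-identical copy Rnaset2b (-0.71, limma adjusted p = 0.133).

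In Cd180 and Ly86, mouse 5 was again the ON-CR mouse nearest to sham. Cd180 was 265, 89.1 and 217 in mice 4, 5 and 6, and Ly86 was 3407, 1933 and 4120. The reads of Slc15a3 are also uncertain, since 28.1% of its exon bases are shared with Tmem132a on the opposite strand (246 and 147 on average in sham and ON-CR nerves). Among the chaperones without a call, Unc93b1, which carries the endosomal receptors to their compartment, had a log2 fold change of 0.38 with overlapping groups, and Hsp90b1 (gp96), the folding chaperone of the receptors, one of -0.07.

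Downstream of the receptors, none of 17 kinases and ubiquitin ligases was called, and their median log2 fold change was 0.03. Irak4, the first kinase of the Myd88 complex, had 275 ± 29.6 in sham and 330 ± 57.1 in ON-CR nerves (SD, n = 3 each), and Ikbke had the highest fold change of the list (0.96, limma adjusted p = 0.301, groups overlapping). Of 11 transcription factors, 2 rose, beside 0.971% of all genes called higher. Fos, a subunit of AP-1, went from 186 ± 63.9 to 748 ± 38.9 (log2 fold change 2.06, limma adjusted p = 0.00279), and Irf8, a factor of microglia and other myeloid cells, from 384 ± 29.0 to 1153 ± 355 (1.53, limma adjusted p = 0.00733). Rela, the NF-kB subunit with the highest level, had a log2 fold change of -0.15 with overlapping groups.

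None of 14 inhibitors of the pathway was called, with a median of 0.02. Tollip, which restrains Irak1, was lower in every ON-CR mouse (1614 ± 166 and 1253 ± 88.5, SD, n = 3 each, log2 fold change -0.36, limma adjusted p = 0.173), and Nfkbia, the inhibitor of NF-kB and itself a target of it, had a log2 fold change of -0.56 (limma adjusted p = 0.268). None of 8 genes for damage-associated ligands was called either. Hmgb1, the nuclear protein released by dying cells, had a log2 fold change of 0.02 and Bgn, a matrix proteoglycan, one of -0.39.

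Of 22 target genes of the pathway 19 were in the table, and 5 were called higher and none lower. Over all genes, 0.971% were called higher and 1.13% lower. In 6 of the 19 every ON-CR value lay above every sham value, and in 1 below, beside 2717 and 2841 of 25755 genes. The lower gene was Nos2 (means of 21.1 and 11.9, log2 fold change -0.84, limma adjusted p = 0.434). The chemokine genes Ccl4 (14.7 ± 4.43 to 432 ± 129, log2 fold change 4.78, limma adjusted p = 0.000136) and Ccl3 (11.2 ± 5.83 to 253 ± 52.1, 4.49, 0.000712) had the largest changes of all pathway lists. Il1a (2.10, limma adjusted p = 0.0195), Cxcl10 (1.95, 0.0407) and the co-stimulatory gene Cd86 (1.42, 0.0393) were the others. Of the exon bases, 11.2% of Il1a, 5.91% of Cxcl10 and 4.04% of Cd180 overlap with a gene on the opposite strand. Of the targets best known for Myd88 signalling, Tnf was at 0 to 5.63 in all libraries, and Il1b was 9.55, 3.54 and 1.88 in sham and 31.9, 5.24 and 17.7 in ON-CR mice (log2 fold change 1.599, SE 0.74, limma adjusted p = 0.332).

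**Figure D5:**
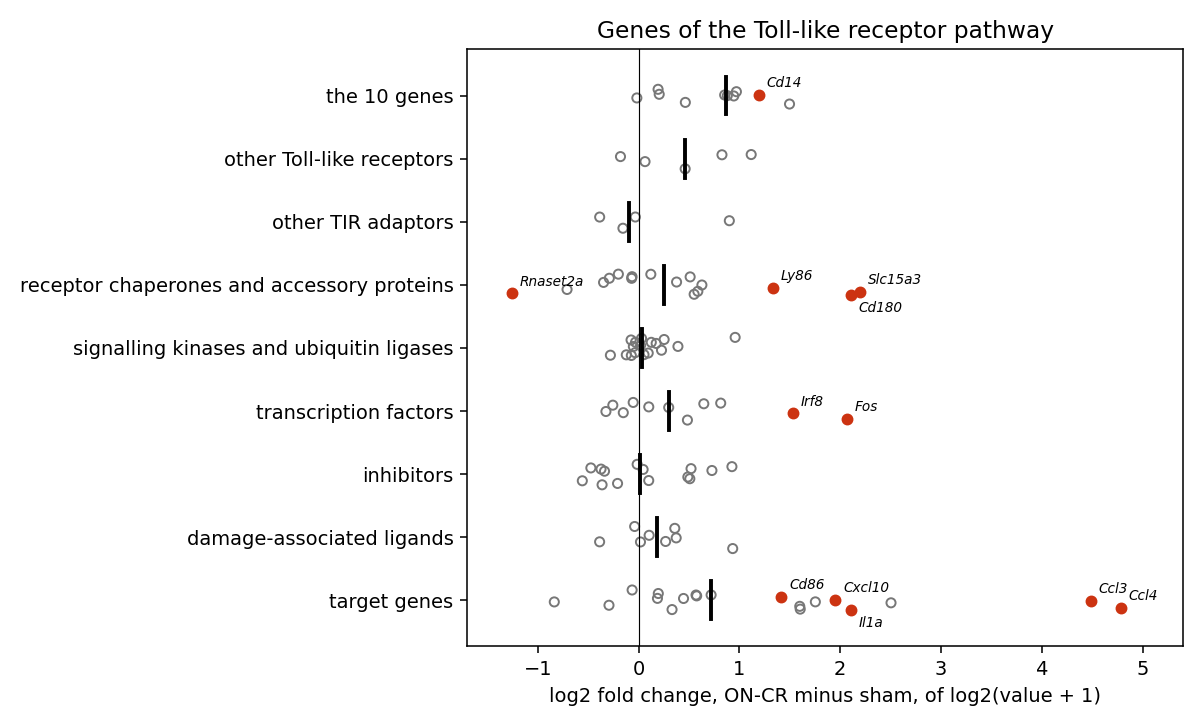
Log2 fold change (ON-CR minus sham, of log2(value + 1)) of the 10 genes and of the genes of 8 further lists of the pathway, one point per gene, filled red where the limma adjusted p was at or under 0.05 and named; black bars are list medians. The median is 0.87 for the 10 genes, 0.72 for target genes and 0.03 for kinases and ubiquitin ligases.

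The calls of Ccl4 and Ccl3 held in all 16 and 15 alternative settings that gave them a value. Of 16 settings, Fos and Slc15a3 were called in 15, Irf8 in 14, Rnaset2a in 13, Cd180, Il1a and Cd86 in 11, Ly86 in 10 and Cxcl10 in 9. Over the 8 lists, 10 of 94 genes were called higher and 1 lower, beside 0.971% and 1.13% of all genes, with a median log2 fold change of 0.18. The count of calls was 2 without mouse 6, 4 without sham mouse 2, 5 without sham mouse 3, 6 without sham mouse 1 and 7 without mouse 4. The lists and the members were chosen with results of these libraries known, so the counts describe them and carry no test.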

How the data were processed

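RNA of whole optic nerves from 3 sham and 3 ON-CR mice was analysed, with groups taken from the sample labels. Reads had been aligned and quantified by the authors in DRAGEN and annotated in Partek Flow 10.0 (Ensembl models, mm10), with median normalization. What they deposited is a signal: estimated read counts scaled by 1 factor per library. Dividing by the value of 1 read made 66.1% to 68.3% of values whole (tolerance 0.02), which gave the depth and the floor of 3 reads, values of 2.66 to 3.18. The floor covers counting error only.

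The limma test (version 3.58.1, R 4.3.3, mean-variance trend) was applied to log2(value + 1) of all 25755 genes, and p-values were adjusted by Benjamini-Hochberg. The pseudocount of 1 understates fold changes of low genes. Because the values are not raw counts, no count model was run. Nothing states that replicates were separate cages or batches, so p-values measure the spread between these libraries. The test was checked on simulated data. Members, lists, tests and alternatives were chosen with earlier results of these data known. All 10 members were named, with called genes, receptors, adaptors and up to 3 abundant examples of each list. Other named genes (Irak4, Ikbke, Unc93b1, Cnpy3, Cnpy4, Lbp, Tnf, Il1b, Nos2, Rnaset2b, Cgas, Nod1, Nod2, Fcrls) and the motif letters were chosen after their values or sequences were seen. Gene positions and exon lengths are from GENCODE M21 (GRCm38).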

Additional observations from a re-analysis of the deposited data

How the results depend on the processing

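Counts and fold changes were recomputed with pseudocounts of 0.1, 2 and 10, with TMM, upper-quartile and library size scaling, with 2 filters on low values, with a robust fit, with library quality weights and on leaving out each mouse. Over 169 fold changes of members, the direction was the same in 160 and reversed in 9. The reversals were Myd88 at 0.11 with library size scaling, 0.0403 with library quality weights and -0.17 to 0.0642 on leaving out 1 mouse, positive without sham mouse 1, sham mouse 3, mouse 4 or mouse 5; Ly96 at -0.0017 to 0.44 on leaving out 1 mouse, negative without mouse 6; and Tlr3 at -0.0076 and Ly96 at -0.019 relative to microglia markers. Members called numbered 3 with library size scaling (616 genes over the table), 2 with library quality weights (791 genes) and 0 to 2 on leaving out a mouse. Genes called over the table were 540, and 67 to 854 without 1 mouse, 67 without mouse 6, 123 without sham mouse 2, 192 without sham mouse 1, 258 without sham mouse 3 and 854 without mouse 5. Pathway genes called were 11, and 2 to 15 without 1 mouse. The median of the members was 0.72 to 1.05 without 1 mouse. Leaving out mice reduces the samples, and the cause of the other moves was not tested. The counts of groups that do not overlap without each mouse were added after seeing the data. No paired analysis was possible because mice carry different numbers in the groups. Depth limits Tlr9, at 3 to 25 reads, and the low receptors Tlr5, Tlr8 and Tlr11.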

Other observations

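The genes whose pattern over the 6 libraries was most like the mean profile of the 10 members, among 14428 genes with a mean value of at least 50, were Rab20, Tnfaip2, Eif2s2, Fgr and Ndufb1-ps, with Pearson r of 0.997, 0.996, 0.996, 0.995 and 0.994. The 6 libraries share the group difference, and the values are a description. Tnfaip2, a gene induced by tumour necrosis factor, was 31.3, 30.4 and 36.6 in sham and 134, 63.8 and 157 in ON-CR mice (log2 fold change 1.73, limma adjusted p = 0.0355). Fgr, a Src family kinase of myeloid cells, was 37.2, 41.6 and 34.8 in sham and 191, 73.5 and 223 in ON-CR mice (1.93, limma adjusted p = 0.0336). In both, mouse 5 was the ON-CR mouse nearest to sham. Among the members themselves, r over the 6 libraries was 0.95 between Tlr1 and Tlr7 and 0.94 between Tlr2 and Tlr13, whereas Myd88 had r of -0.16 to 0.43 with the other 9.

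Sensors in the cytosol and their adaptors, a list written after the member values had been seen, held no called gene of 10. The list joined sensors of nucleic acids with Nod1 and Nod2, which are not such sensors. The limma test gave 0 genes at an unadjusted p of 0.05 as well, and the median log2 fold change was 0.13. Over all genes, 2.1% were called and 15.6% had an unadjusted limma p at or under 0.05. In 2 of the 10 genes, Mavs and Nod1, every ON-CR value lay below every sham value, beside 2841 of 25755 genes. Mavs, the adaptor of the RNA sensors, had 616 ± 69.3 in sham and 526 ± 14.4 in ON-CR nerves (SD, n = 3 each) without overlap. Ddx58 (RIG-I) had 447 ± 40.9 and 559 ± 105 with overlapping groups. Cgas, the DNA sensor, had 21.5 ± 6.597 and 43.5 ± 18.9 with overlapping groups (log2 fold change 0.92, limma adjusted p = 0.359).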
